A study of Mus musculus with 8 samples.

Results

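Levels of 5 microRNAs (miRNAs) known from mature blood cells were followed across mouse bone marrow LSK cells: mmu-miR-223-3p, mmu-miR-142a-3p, mmu-miR-142a-5p, mmu-miR-150-5p and mmu-miR-486a-5p. They are every row of the deposited count table that carries the name miR-223, miR-142a, miR-150 or miR-486a with any arm suffix, 5 of the 190 miRNAs listed. The rule uses the names alone. The study set 4 libraries of db/m mice, strain B6.BKS(D)-Leprdb/+ db/m and heterozygous at the leptin receptor, against 4 libraries of db/db mice, strain B6.BKS(D)-Leprdb/J and homozygous. Mice homozygous for the db allele lack a working long leptin receptor and become obese and diabetic, and the labels give 6 months of diabetes for every sample, the heterozygous controls included. LSK cells lack lineage markers and carry Sca1 and cKit, and the fraction holds haematopoietic stem cells and multipotent progenitors. RNA was taken from flow-sorted cells with Trizol, and small RNA libraries were made with a QIAseq miRNA kit.

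The title of every sample reads db/m, so the libraries were grouped by their genotype and strain labels. Total counts were 13273 to 77834 in db/m and 36145 to 54228 in db/db, so that 1 count was worth 13.4 to 76.4 CPM, the unit of level used here, which scales counts to a library size common to all libraries. The shallowest library was db/m replicate 2. In db/m, replicates 1 to 3 share one title number and replicate 4 has another. In db/db, replicates 1 and 2 share a number and replicates 3 and 4 share another. The labels do not say that the libraries came from separate mice, so a p-value measures the spread between these libraries, which may be technical.

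A miRNA is cut from a hairpin precursor, and either arm of the hairpin can be loaded into an Argonaute protein, where bases 2 to 8, the seed, pair with messenger RNAs and lower their output. miR-223 is abundant in granulocytes and monocytes and restrains neutrophil production in the mouse. miR-142 is made in nearly all blood cells and is a general leukocyte miRNA. miR-150 is high in mature B and T lymphocytes, where the transcription factor Myb is its best known target, and miR-486 accumulates during red cell formation together with miR-451. A sort for cells without lineage markers removes most of the mature cells in which these miRNAs are most abundant.

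RefSeq (GRCm38.p6) gave a mature sequence for 3 of the 5 members and for 163 of the 190 miRNAs in the table. They are shown because the seed defines which transcripts a miRNA can pair with. The seed is in capitals, and each sequence runs 5′ to 3′.
mmu-miR-142a-3p: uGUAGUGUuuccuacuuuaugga
mmu-miR-142a-5p: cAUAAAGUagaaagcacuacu
mmu-miR-223-3p: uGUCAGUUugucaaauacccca
The 3 seeds differ from each other, and no other miRNA of the table with a sequence shares one of them. The arms of miR-142a come from opposite sides of a single hairpin and are 23 and 21 bases long.

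On GRCm38 the mir-142a hairpin lies at chr11:87756864-87756927 on the plus strand, in an intron of the long noncoding RNA Mir142hg, with Mir142b annotated on the opposite strand. The mir-223 hairpin lies at chrX:96242817-96242926 on the plus strand, in an exon of the transcript F630028O10Rik of the same strand. The mir-150 hairpin lies at chr7:45121757-45121821 on the plus strand, with no other annotated gene over it. The mir-486a hairpin lies at chr8:23142555-23142682 on the plus strand, in an intron of Ank1, which encodes the red cell membrane protein ankyrin, and Mir3107 and Gm15816 are annotated on the opposite strand. The sources used here do not say whether the counting used strand. How reads were split between miR-142a or miR-486a and its opposite-strand partner is uncertain, and whether strand could separate them was not tested.

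The members were all well detected in LSK cells, with 38 to 1224 counts in each library. All 5 passed the filter on low counts. Together they held 2.55% to 3.55% of a db/m library and 2.70% to 3.57% of a db/db library. The mean share was 3.04% ± 0.425 for db/m and 3.15% ± 0.356 for db/db libraries (SD over 4 libraries of each genotype), a difference smaller than the spread within either genotype. In bulk RNA, fewer cells of a type and less of the miRNA per cell cannot be told apart.

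By lineage, the leukocyte pair miR-142a-3p and miR-142a-5p held the largest share. It took 1.40% ± 0.361 of a db/m library and 1.63% ± 0.246 of a db/db library (SD, n = 4 each). The myeloid miR-223-3p followed with 0.855% ± 0.134 and 0.884% ± 0.280. The lymphoid miR-150-5p held 0.529% ± 0.245 and 0.356% ± 0.0459, and the erythroid miR-486a-5p 0.259% ± 0.0555 and 0.278% ± 0.215. The genotypes overlapped in each of these 4 shares.

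In order of mean CPM, miR-142a-3p came first, at place 22 of 190 in the table, followed by miR-223-3p at 25, miR-150-5p at 35, miR-142a-5p at 40 and miR-486a-5p at 45. miR-142a-3p exceeded miR-223-3p in 6 of 8 libraries, miR-223-3p exceeded miR-150-5p in 7, miR-150-5p exceeded miR-142a-5p in 6 and miR-142a-5p exceeded miR-486a-5p in 7. So no neighbouring pair kept its order in all 8 libraries. A mature miRNA gives 1 read whatever its length, but the efficiency of adapter ligation differs between sequences and was not corrected, so this is an order of counts.

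**Figure D1:**
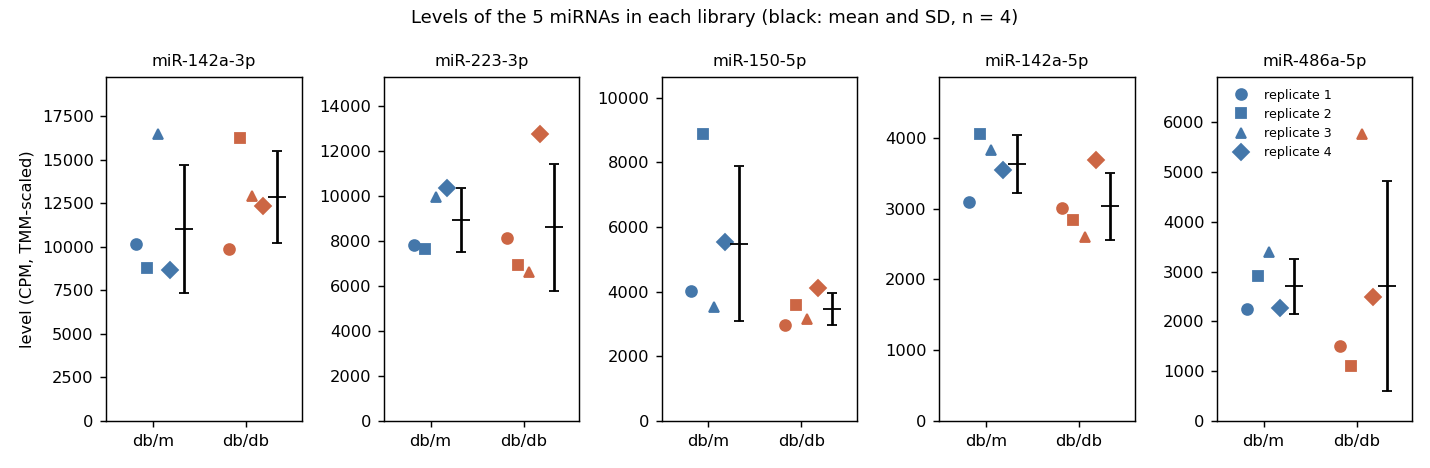
Level of each miRNA in each library as CPM over the TMM-scaled library size (linear axes from 0), by genotype, with the mean and SD of 4 libraries in black and a marker shape for each replicate number. The genotypes overlap in every panel, the db/m libraries of miR-150-5p reach 8864 CPM, and db/db replicate 3 stands at 5754 CPM of miR-486a-5p.

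None of the 5 members passed an adjusted p of 0.05 between the genotypes in the quasi-likelihood test of edgeR (Benjamini-Hochberg adjustment over all tested miRNAs), against 7 of the 144 miRNAs tested (4.86%). DESeq2 also called 0 of the 5, with 16 miRNAs called in all. At an unadjusted p under 0.05 the edgeR test held 1 member, miR-150-5p, and 32 of 144 miRNAs (22.2%). The genotypes did not overlap for 0 members and for 25 of 144 miRNAs (17.4%). The members' median log2 fold change was -0.06, with 1 value above 0 and 4 below, beside a median of -0.03 over all 144.

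miR-150-5p, the lymphocyte miRNA, had the largest fold change of the 5 in size. Its db/m levels in replicates 1 to 4 were 4027, 8864, 3523 and 5536 CPM. Its db/db levels were 2980, 3595, 3161 and 4107 CPM. The db/m libraries were on the whole higher and much more spread, yet db/m replicate 3 lay below db/db replicates 2 and 4, and db/m replicate 1 below db/db replicate 4. The db/m mean was 5487 ± 2408 CPM and the db/db mean 3461 ± 502 CPM (SD, n = 4 each). In edgeR's quasi-likelihood test the log2 fold change of db/db against db/m was -0.63 (SE 0.27, 95% interval -1.23 to -0.04), with an unadjusted p of 0.0381 and a Benjamini-Hochberg adjusted p of 0.183.

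The call on miR-150-5p depended on single libraries. Without db/m replicate 3, which has its lowest db/m level, the log2 fold change was -0.89 and the adjusted p of edgeR's quasi-likelihood test 0.0351. Without db/m replicate 2, which has its highest level, the values were -0.37 and 0.406. That library is also the shallowest, with 116 counts of miR-150-5p, and the part of depth in its level was not tested. Over every alternative run, the adjusted p ran from 0.0346 to 0.406 and the log2 fold change was below 0. In the authors' deposited table the log2 fold change is -0.73, at a false discovery rate of 0.156.

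miR-223-3p, the granulocyte and monocyte miRNA, was at similar mean levels in the genotypes. Its db/m levels were 7816, 7641, 9937 and 10364 CPM. Its db/db levels were 8138, 6918, 6619 and 12739 CPM. db/db held both the lowest libraries, replicates 2 and 3, and the highest, replicate 4. The means were 8939 ± 1411 and 8603 ± 2834 CPM (SD, n = 4 each), and the log2 fold change was -0.06 (SE 0.23, 95% interval -0.56 to 0.44) with an adjusted p of 0.932 in edgeR's quasi-likelihood test. Its sign turned when libraries were scaled by their totals, to 0.04, a scaling that moved the median of all miRNAs by 0.11 on the log2 scale. Relative to that shift the value was again -0.06. The interval leaves room for a change of either direction, so equal levels are not shown.

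miR-142a-3p, the more abundant arm of the leukocyte hairpin, was the 1 member with a fold change above 0. Its db/m levels were 10148, 8787, 16458 and 8678 CPM. Its db/db levels were 9897, 16265, 12914 and 12342 CPM. A single db/m library, replicate 3, was the highest of the 8, and the other 3 db/m libraries were lower than db/db replicates 2, 3 and 4. The log2 fold change was 0.21 (SE 0.24, 95% interval -0.30 to 0.72), with an adjusted p of 0.642 in edgeR's quasi-likelihood test.

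miR-142a-5p, the lesser arm, had db/m levels of 3100, 4050, 3832 and 3544 CPM. In db/db it stood at 3015, 2837, 2594 and 3687 CPM. Here db/db replicate 4 lay within the db/m range and the other 3 db/db libraries lay below the lowest db/m library. The log2 fold change was -0.25 (SE 0.20, 95% interval -0.68 to 0.17), with an adjusted p of 0.515 in edgeR's quasi-likelihood test. It was the steadiest member in db/m, where its coefficient of variation of 11.3% was close to the 9.53% that counting error alone would give.

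miR-486a-5p, the red cell miRNA, had almost equal means and very unequal spread. Its db/m levels were 2252, 2904, 3388 and 2260 CPM. Its db/db levels were 1499, 1108, 5754 and 2495 CPM. The db/db libraries held both the lowest levels, in replicates 1 and 2, and the highest, in replicate 3, a 5.20-fold range. The means were 2701 ± 550 and 2714 ± 2109 CPM (SD, n = 4 each), and the log2 fold change was -0.01 (SE 0.43, 95% interval -0.95 to 0.94) with an adjusted p of 0.994 in edgeR's quasi-likelihood test. Scaled by library totals it was 0.10, and -0.01 relative to the shift of all miRNAs. Without db/db replicate 3 it was -0.60, with an adjusted p of 0.293 in the same edgeR test, the lowest over its alternatives.

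The db/db coefficient of variation of miR-486a-5p was 77.7%, where counting error alone would give 10.3%. That was the highest of the 74 tested miRNAs with a mean of at least 1000 CPM, whose median was 17.4%, and the fourth highest of all 144 tested. In db/m its coefficient of variation was 20.4%, at place 39 of the same 74. Within db/db, replicates 3 and 4, which share a title number, were both above replicates 1 and 2, which share another. This is an order of 4 libraries alone. Replicates 3 and 4 themselves stood far apart, at 5754 and 2495 CPM, against 1499 and 1108 CPM for replicates 1 and 2. No erythroid partner could be read beside it, as 1 of the 8 miRNAs of the erythroid list has a row in the table and that is miR-486a-5p itself. miR-451a and the arms of miR-144 were not analysed here.

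**Figure D2:**
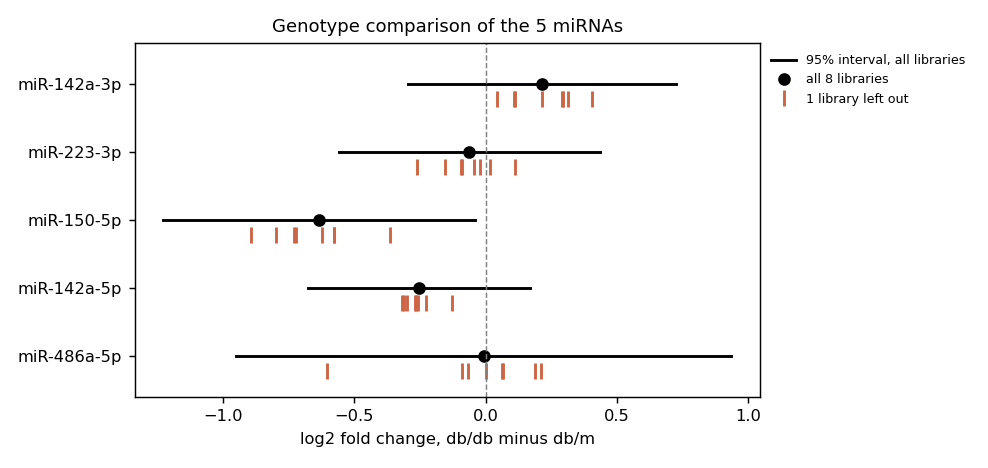
Log2 fold change of db/db against db/m for each miRNA from edgeR (black point, all 8 libraries) with its 95% interval (line), and the values with 1 library left out (short marks). Every interval but that of miR-150-5p, -1.23 to -0.04, spans 0, and the marks of miR-486a-5p reach from -0.60 to 0.21.

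Ratios of 2 members inside a library need no scaling between libraries, and the 10 pairs of members were set against genotype by exact two-sided permutation (70 ways to assign 8 libraries, smallest possible p 0.0286). None of the 10 had an unadjusted p under 0.05, and in none were the genotypes apart. The lowest p belonged to the arms of miR-142a. The ratio of miR-142a-3p to miR-142a-5p was 3.26, 2.16, 4.29 and 2.44 in db/m replicates 1 to 4. In db/db it was 3.28, 5.72, 4.96 and 3.34. So the 3p arm was 2.16 to 5.72 times its partner, and 3 of the 4 db/m libraries were below all 4 db/db libraries, with db/m replicate 3 among the higher ones. The mean log2 ratio was 0.52 higher in db/db (exact permutation p = 0.114, Benjamini-Hochberg adjusted p = 0.612 over 10 pairs). The log2 ratio of miR-142a-3p to miR-150-5p was 0.83 higher in db/db (exact permutation p = 0.171, adjusted p = 0.612). That difference was 0.48 without db/m replicate 2 and 1.22 without db/m replicate 3.

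**Figure D3:**
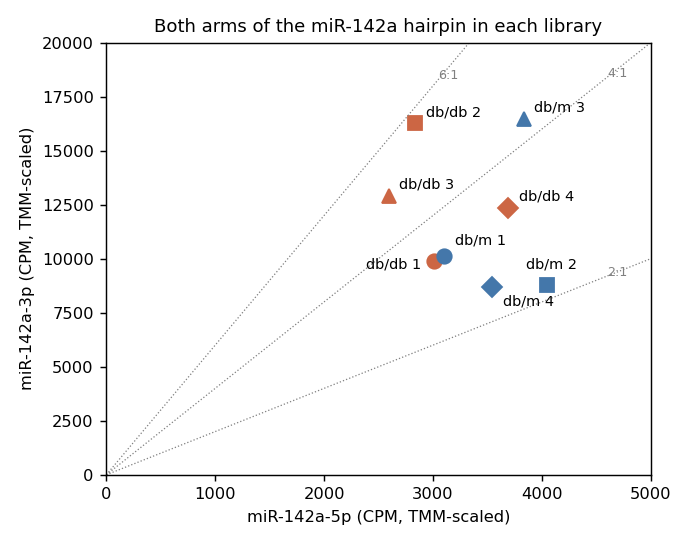
CPM of miR-142a-3p (vertical axis) against CPM of miR-142a-5p (horizontal axis) in the 8 libraries, with dotted lines at fixed ratios of the arms. The libraries range from a ratio of 2.16 in db/m replicate 2 to 5.72 in db/db replicate 2, and the r between the log2 levels of the arms is -0.26.

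Covariation across the 8 libraries was measured as Pearson's r and Spearman's rho of log2 CPM for the 10 pairs of members, with exact two-sided permutation over 40320 pairings of the libraries. Libraries that share a title number may not be independent, so these p-values may be too small. The members did not move as a single block. 7 values of r were above 0 and 3 below, and no pair passed after Benjamini-Hochberg adjustment over the 10 pairs, the smallest adjusted p of r being 0.313.

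The largest r in size joined the lymphoid miR-150-5p and miR-142a-5p. Their r was 0.68 (exact permutation p = 0.0360, adjusted p = 0.313) and their rho 0.64 (exact permutation p = 0.0962). Without the 2 libraries farthest from the median of miR-150-5p, db/m replicates 2 and 4, r was 0.50, and centred on the genotype means it was 0.49. miR-223-3p and miR-142a-5p had an r of 0.65 (exact permutation p = 0.0822) and a rho of 0.55, with 0.68 without the 2 farthest libraries and 0.72 when centred. These 2 pairs both include miR-142a-5p, the lesser leukocyte arm.

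The arms of miR-142a, cut from one hairpin, had an r of -0.26 (exact permutation p = 0.521), a rho of -0.24, an r of -0.55 without db/db replicate 2 and db/m replicate 3, and -0.04 when centred on the genotype means. miR-142a-3p and miR-150-5p had the lowest r, -0.59 (exact permutation p = 0.0940, rho -0.52), which was -0.65 without the 2 farthest libraries and -0.49 when centred. The other 6 values of r, among them all 4 with miR-486a-5p, lay between -0.07 and 0.11. For miR-142a-5p and miR-486a-5p, r was 0.08 over 8 libraries, 0.78 without db/db replicate 3, -0.02 without db/m replicate 2 and 0.91 without both. The value near 0 thus rested on db/db replicate 3.

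The arms of other hairpins give a measure of what these libraries hold. This comparison was chosen after the members' values were seen. Of the 14 hairpins with both arms tested, 10 had an r above 0 between their arms, with a median of 0.33, and miR-142a was second lowest. Centred on the genotype means, miR-142a was at place 3 from the lowest. By the spread of the arm ratio miR-142a was not extreme. Its log2 ratio spanned 1.40 over the libraries, where the 14 hairpins ran from 0.54 for let-7d to 3.91 for miR-92b. miR-142a-5p itself varied little, with a coefficient of variation of 15.6% over all libraries, where counting error alone would give 9.04%. The part of this in the low r was not tested. The lesser arms of the 14 hairpins had 76 to 1546 counts in all, and 1222 for miR-142a. The lowest r was -0.62 for miR-30e, with -0.67 when centred. miR-25 had an r of 0.49 and, centred, -0.35. The highest was 0.98 for miR-126a, a hairpin known from progenitors, with 0.91 when centred, and the part of depth in these values was not tested.

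**Figure D4:**
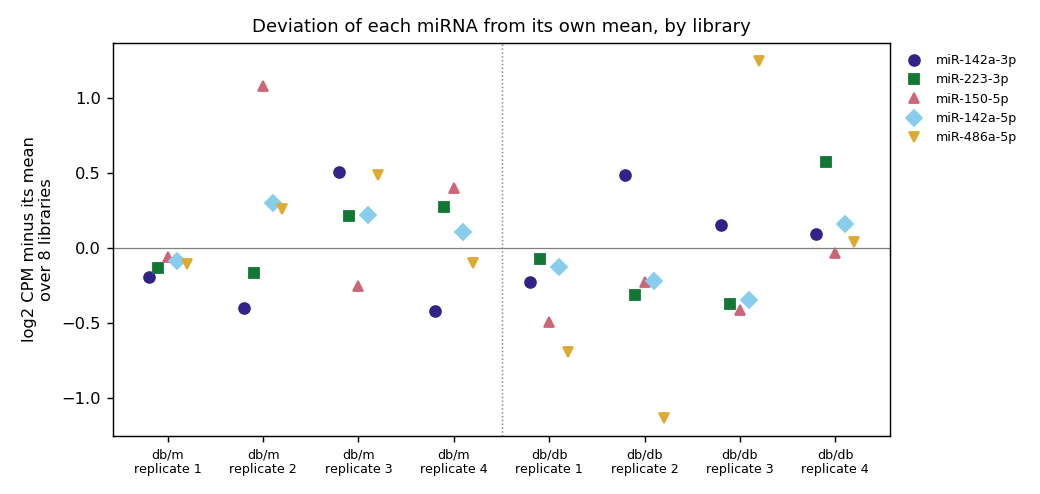
Log2 CPM of each miRNA minus its own mean over the 8 libraries, by library, with db/m left of the dotted line and db/db right of it. miR-150-5p stands highest in db/m replicate 2 and miR-486a-5p in db/db replicate 3, while the other 4 miRNAs lie much nearer their own means in both libraries.

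For each member the 3 tested miRNAs outside the set with the highest r of log2 CPM over the 8 libraries were listed from 139 candidates. Since these are the highest of 139, no p is given. The median r over the candidates was between -0.06 and 0.01 for each member. miR-142a-3p was most like miR-30e-5p with an r of 0.90, miR-19a-3p with 0.86 and miR-19b-3p with 0.84. miR-19a-3p rests on 1 to 18 counts a library. The last 2 belong to the miR-17 to miR-92a family of clusters, which is active in dividing progenitors. These 3 sequences are shown because 2 of them share a seed and none shares that of miR-142a-3p.
mmu-miR-30e-5p: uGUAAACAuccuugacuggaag
mmu-miR-19a-3p: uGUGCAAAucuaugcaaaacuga
mmu-miR-19b-3p: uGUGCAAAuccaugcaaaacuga

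The other members had other nearest profiles. miR-150-5p was most like miR-139-3p with an r of 0.91, miR-3473b with 0.85 and miR-690 with 0.83. miR-139-3p has 5 to 19 counts a library, miR-3473b 26 to 54 and miR-690 47 to 80. The rho with miR-150-5p was 0.93 for miR-139-3p and 0.81 for miR-3473b, but 0.50 for miR-690. miR-150-5p is highest in the shallowest library, db/m replicate 2, and the part of that library in these values was not tested. miR-142a-5p was most like miR-23b-3p with 0.85, miR-22-3p with 0.84 and miR-342-3p with 0.82. miR-223-3p had no close partner, with 0.69 for miR-342-3p, 0.69 for miR-20b-5p and 0.68 for miR-199a-3p, so miR-342-3p, which is known from lymphocytes, was in the lists of both. miR-486a-5p was most like miR-181b-5p with 0.87, miR-7a-5p with 0.87 and miR-484 with 0.69.

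The lists of lineage miRNAs place the members among their fellows. The myeloid list has 4 of 8 miRNAs in the table, all tested, with 0 called in either direction. Its log2 fold changes were split, 2 above 0 and 2 below, with a median of 0.17. Besides miR-223-3p its most abundant were miR-21a-5p with a mean of 23102 CPM and miR-146a-5p, a brake on inflammatory signalling, with 12537 CPM. The lymphoid list has 5 of 8 in the table and tested, with 0 called, 1 above 0, 4 below and a median of -0.30. Its most abundant were miR-181a-5p with 11573 CPM, miR-155-5p with 4791 CPM and miR-150-5p. miR-181a-5p and miR-155-5p had log2 fold changes of -0.08 and 0.18, miR-342-3p of -0.38 and miR-181b-5p of -0.30. The -0.63 of miR-150-5p was the largest of the 5 in size, though none of the 5 passed the test. The leukocyte list holds the miR-142a arms alone, with 0 of 2 called. Of all 144 tested miRNAs 7 were called (4.86%), so 0 calls in lists this short do not set them apart.

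The LSK label was set against miRNAs known from stem and progenitor cells. The list has 9 of 12 in the table and took 6.34% to 9.52% of counts in db/m and 9.98% to 13.5% in db/db. That was above the share of the 5 members in every library, but the members are a part of the mature lineage lists. In db/m the mean share was 8.24% for this list, 4.42% for the myeloid, 2.60% for the lymphoid, 1.40% for the leukocyte and 0.259% for the erythroid list. In db/db the same shares were 12.4%, 5.01%, 2.48%, 1.63% and 0.278%. Of the 9 tested miRNAs of the stem and progenitor list, 3 were called higher in db/db and 0 lower by edgeR's quasi-likelihood test. Of all 144, 2.78% were called higher and 2.08% lower. The 3 are miR-196b-5p and both arms of one hairpin, miR-126a. The list was written with earlier results of these data known, so these counts describe it and do not test it. The list's median log2 fold change was 0.40. The most abundant were miR-125a-5p, miR-125b-5p and miR-126a-3p, a regulator of stem cell quiescence, with means over all libraries of 31720, 24652 and 16756 CPM. The stromal list, with 2 of 6 in the table, held 0.00753% to 0.125% of counts, and its 1 tested miRNA was not called. Of the miRNAs of other tissues, the liver's miR-122-5p and the muscle's miR-1a-3p had a row, 2 of 8, and 0 of 1 tested was called.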

How the data were processed

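Small RNA libraries of 8 sorted LSK samples were analysed from the deposited table of whole-number counts per mature miRNA, called raw counts per the file headers. The authors' columns of the same deposited table hold log2 CPM for each library, a log2 fold change, a p-value, its false discovery rate and a signed fold change, which was treated as a score. The tool edgeR 3.41.9 and the build mm10 come per the submitters' processing notes. Not given in the sources used here: aligner, use of molecular identifiers, strand, and filters applied before deposit. An error drawn from counts therefore covers counting alone.

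Counts were tested in R 4.3.3 with edgeR 4.0.16: filterByExpr (minimum count 10, minimum total 15), TMM scaling, glmQLFit (robust) and glmQLFTest on 8 libraries with 6 residual degrees of freedom. Benjamini-Hochberg adjustment ran over 144 miRNAs, with a threshold of 0.05. CPM were formed with the TMM-scaled library size. Log2 CPM used a prior count of 2, and ratios a pseudocount of 0.5 on each count. DESeq2 1.42.0 and limma 3.58.1 served for alternatives, and permutations used SciPy 1.17.1 in Python 3.11.15. edgeR's likelihood ratio test without the filter gave the authors' deposited log2 fold changes and false discovery rates for the 5 members.

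The members, the lineage lists and the tests were chosen with earlier results of these data known. The miRNAs named are all rows of the 4 names, the 3 most abundant of each list and the 3 tested miRNAs with the highest r for each member. Those named for the arms of other hairpins are outside that rule, as are miR-196b-5p and miR-126a-5p, named because they were called. Title suffixes were not used to pair libraries in the main test. 0 columns of values lacked a sample. No 2 libraries of a genotype agreed within sampling noise.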

Additional observations from a re-analysis of the deposited data

Results flagged for a closer look

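The ratio of miR-223-3p to miR-486a-5p in db/db replicate 3 stood far from the other db/db libraries. Its log2 value was 0.20, a ratio of 1.15, against ratios of 5.09 to 6.20 in the other 3. The gap to the nearest library was 0.883 of the whole range, above Dixon's 95% critical value for 4 samples. 30 sets of 4 libraries were checked, 1 stood out, and chance alone picks about 1 in 20. The same library has the highest miR-486a-5p, 5754 CPM, and the lowest miR-223-3p, 6619 CPM, and the cause was not tested.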

How the results depend on the processing

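Scaling by library totals turned miR-486a-5p to a log2 fold change of 0.10 and miR-223-3p to 0.0434. With 1 library left out, the number of members called was 0 to 1 and of all tested miRNAs called 3 to 18. The log2 fold changes then ran from -0.26 to 0.11 for miR-223-3p, -0.60 to 0.21 for miR-486a-5p, -0.89 to -0.37 for miR-150-5p, 0.04 to 0.40 for miR-142a-3p and -0.32 to -0.13 for miR-142a-5p. Summing libraries that share a title number left 4 sums in place of 8 libraries and called 15 of 186 miRNAs tested. DESeq2 called 16 of 144, against 7 of 144 in the main test. Leaving the 5 most abundant miRNAs out of the total raised the members' share to 5.54% in db/m and 5.37% in db/db.

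Correlations of the deviations of libraries with the same title suffix ran from -0.35 to 0.31, and with different suffixes from -0.31 to 0.19. Deviations were taken from each genotype's own mean, and a suffix can recur within a genotype. These values therefore cannot decide whether the suffixes pair the libraries. With the suffix as a replicate block, miR-150-5p had a log2 fold change of -0.87 (adjusted p = 0.0346 in edgeR's quasi-likelihood test) and miR-486a-5p of 0.17, 1 member and 11 miRNAs were called, and the log2 ratio of miR-142a-5p to miR-486a-5p differed by -0.18. In limma with that block the log2 ratio of miR-142a-3p to miR-150-5p was 1.29 higher in db/db (unadjusted p = 0.00997, adjusted p = 0.0997). Suffix 3 occurs in db/m replicate 3 alone, so the block takes that library out of the comparison.

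Pairs with miR-486a-5p changed the sign of r most. With RLE factors r was -0.11 for miR-142a-3p, -0.13 for miR-223-3p and -0.0744 for miR-142a-5p. With library totals it was -0.000503, -0.0510 and -0.00107. With library sizes that leave out the 5 most abundant it was -0.0183 for miR-142a-3p and -0.0431 for miR-223-3p. Centred on genotype means it was -0.0307 for miR-223-3p, -0.0509 for miR-150-5p and -0.0602 for miR-142a-5p. With 1 library left out, r with miR-486a-5p ran from -0.26 to 0.51 for miR-142a-3p, -0.20 to 0.78 for miR-142a-5p, -0.0861 to 0.51 for miR-150-5p and -0.45 to 0.50 for miR-223-3p. It ran from -0.53 to 0.11 for miR-142a-3p with miR-223-3p and -0.000106 to 0.54 for miR-223-3p with miR-150-5p. Log2 ratios to miR-486a-5p differed between genotypes by -0.30 to 0.53 for miR-142a-5p, -0.66 to 0.19 for miR-150-5p and -0.0680 to 0.74 for miR-223-3p. The cause of these changes was not tested. Depth limits the values most in db/m replicate 2, where 38 to 116 counts stand behind each member.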
